A study of Mus musculus with 20 samples.

Results

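Livers of mice lacking estrogen receptor alpha (ERa-/-, called null here) were compared with livers of wild-type mice (ERa+/+) when both had received estradiol (E2). The comparison used 10 of the 20 arrays of the series, 5 from null and 5 from wild-type animals under E2, and 1 array per animal. The other 10 arrays, 5 of each genotype under placebo, were used to separate genes that differed because the wild types had responded to E2 from genes that differed with genotype in both treatments. Ovaries had been removed from all mice at an age of 4 weeks, and at 9 weeks each was gavaged once, either with 1 mg/kg of E2 or with the vehicle, castor oil with 5% ethanol. They were anaesthetised with ketamine and xylazine, and liver was taken 4 hours after gavage. The null animals and the wild types came from the same parents. The deleted part of Esr1, the gene of the receptor, is not stated in the labels, which name no tissue-specific deletion. Each p-value measures the spread between separate animals.

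Estrogen receptor alpha is a nuclear receptor that binds estradiol, attaches to DNA directly or through other transcription factors, and recruits coregulators that change transcription of nearby genes. It is the main estrogen receptor of the liver, where estrogens are known to act on lipid and glucose metabolism, and where many sex-biased genes depend on the pattern of growth hormone secretion. Hepatocytes make up most of the RNA of a whole liver, but the sample also holds endothelial, stellate, immune and bile duct cells. In such bulk samples, fewer cells of a type and less RNA per cell cannot be told apart.

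A level is the log2 of a probe's background-subtracted intensity minus the 75th percentile of its array, so that 0 is the 75th percentile. A difference is the null mean minus the wild-type mean on this log2 scale, given with its standard error (SE) from the fit. The files called 54.0% to 70.0% of spots well above background on the 5 wild-type arrays under E2 and 51.8% to 61.3% on the 5 null arrays. The highest and the lowest of these shares were on wild-type replicate 1 and null replicate 2. Across genes, arrays of the same E2 group correlated at 0.982 to 0.995 and arrays of different E2 groups at 0.98 to 0.992. The arrays lay on 4 slides, of which 3 held both E2 groups. Summed levels of 16 hepatocyte markers ranged from 9830 to 11900 on the wild-type arrays under E2 and from 9880 to 11800 on the null arrays, in units of the 75th percentile of the array.

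Esr1 was lower in every null liver. At the probe on chr10:5343056-5343115 (mm9, minus strand), the wild types under E2 had levels of 0.84, 0.12, 1.02, 0.83 and 0.21, and the nulls had -1.31, -1.59, -1.73, -1.41 and -2.09. The groups did not overlap, and the null mean was 4.69-fold lower (log2 difference -2.23, SE 0.23, limma adjusted p = 1.69e-05). The probe was well above background on all 5 null arrays, so transcript was still measured at this position. Under placebo, with no shared arrays, the difference was -2.0 (adjusted p = 0.000461). The other kept probes of Esr1 lay at chr10:5379218-5379277 and chr10:5489352-5489411 and differed by -1.45 and -1.59 under E2 (adjusted p over probes, 0.00047 and 0.00144). The first of these was above background on 2 of 5 null arrays and on 5 of 5 wild-type arrays.

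The other 2 estrogen receptors gave no call. Esr2, estrogen receptor beta, had a difference of 0.04 (SE 0.11, adjusted p = 0.929), and Gper1, the G protein-coupled estrogen receptor, had -0.08 (SE 0.22, adjusted p = 0.935). The sign of either value turned under some of the alternative settings. The Esr2 probe had mean levels of 3.07 in wild types and 3.11 in nulls under E2, against 0.60 for Esr1 in wild types. Whether that probe measures Esr2 alone was not tested. Of the 6 genes of the estrogen receptor list, Esr1 was the only one called under E2.

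Under E2, 104 of 21454 genes were called at a limma adjusted p under 0.05, which is 0.485% of those tested. Of these, 87 were lower in nulls (0.406% of genes tested) and 17 were higher (0.0792%). The count fell to 67 without wild-type replicate 5 under E2 and to 69 without null replicate 4 under E2. It was 41 (4 higher, 37 lower) when arrays were scaled on their median and 38 (4 higher, 34 lower) when only animals numbered 750 or above were used. That last setting left out replicates 1 and 2 of both E2 groups and null replicates 1, 2 and 3 under placebo. From that setting alone, a lost call cannot be told apart from the loss of animals, and the meaning of the numbers is not stated. With numbers below 750 fitted as a block instead, 114 genes were called (25 higher, 89 lower). Of these, 99 were among the 104. Krt4, Prtn3, Isyna1, Ngfr, Lifr, Gm6524 and Catsper2 lost their calls for animals numbered 750 or above and kept them with the block. Under placebo only nulls had numbers below 750, so the placebo contrast was unbalanced on animal number. At an unadjusted p under 0.05, 2109 genes differed. The median absolute difference of the 104 was 0.99, and 51 of them differed at least by a factor of 2. The groups did not overlap in 102 of the 104, and in 2.57% of all genes tested; the calls came from the same 10 arrays, so nothing is read from this count. Under placebo, with no shared arrays, they did not overlap in 8 of the 104, against 1.82%, and 24 of the 104 had an unadjusted p under 0.05, against 10.2%. These counts hold differences in either direction. An unadjusted p under 0.05 in the same direction as under E2 was found for 7 of the 17 higher and 10 of the 87 lower genes. The fit gives both contrasts the same estimate of spread. The difference between the genotype differences had an unadjusted p under 0.05 in 92, and in 7.44% of all genes tested. That contrast contains the E2 difference that chose the 104, so its count is a description. The last gene called was Spon1 (-1.57, adjusted p = 0.0492) and the first outside the threshold was Pde6d (0.48, adjusted p = 0.0505).

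Each called gene was placed by the placebo arrays. It was a response gene if E2 against placebo was called in wild types in the direction that made the genotypes differ and the genotype difference under placebo was not called. It was a genotype gene if the genotypes differed under placebo in the same direction and wild types did not respond. The response contrast shares its 5 wild-type E2 arrays with the comparison of genotypes, so a high wild-type array raises both. The placebo contrast shares none. By this rule 54 genes were response genes, 5 were genotype genes, 0 were both, and 45 were neither. Over all genes tested, 0.336% were called for E2 in wild types and 0.0746% for genotype under placebo.

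**Figure D1:**
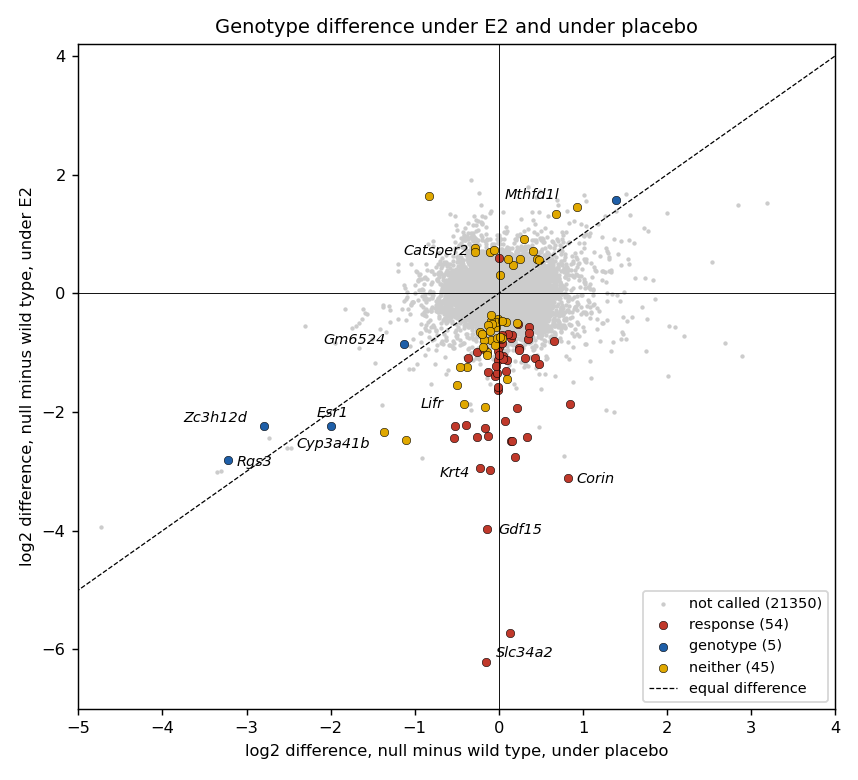
Each point is a gene tested, with its log2 difference (null minus wild type) under placebo on the horizontal axis and under E2 on the vertical axis; red, blue and yellow mark response, genotype and neither genes, and grey marks genes not called. The response genes lie in a column near 0 under placebo, while Esr1, Rgs3, Zc3h12d and Gm6524 lie near the dashed line of equal difference. The class rules use the placebo calls, so these positions are partly built in.

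The response genes were nearly all lower in nulls, 53 of 54. The exception was Rai14. The placebo difference as a share of the E2 difference had a median of -0.034 over these genes and lay below 0.25 in 51 of them. The class rule excluded placebo calls, and the wild-type placebo arrays enter both the response contrast and this share. A low share is thus partly built in, and nothing is read from it. Of the 54, 35 differed at least by a factor of 2 and 53 had groups that did not overlap under E2. For 34 of the 54, the difference between the genotype differences under E2 and placebo was itself called, and over all genes tested for 0.168%. It uses the same E2 arrays that defined the genes, so nothing is read from that share.

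Slc34a2, a sodium-dependent phosphate transporter, had the largest difference among genes with a symbol. Its levels in wild types under E2 were 0.79, -0.02, -0.63, -0.90 and -0.70, and in nulls -7.05, -6.08, -6.81, -6.86 and -5.75 (chr5:53462121-53462180). All 5 wild-type arrays were above background and 0 of 5 null arrays were, so the size is only bounded, at least 19.0-fold lower in nulls (fitted difference -6.22, SE 0.39, adjusted p = 3.13e-08). That bound sets the wild-type mean against the dimmest signal called well above background on each null array. No array of either placebo group was above background. Under normexp background correction, which keeps an offset, the fitted difference was -2.63.

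Gdf15, a secreted stress-responsive cytokine of the TGF-beta superfamily, was 15.6-fold lower in nulls. Its levels under E2 were 6.09, 5.68, 6.05, 5.74 and 5.51 in wild types and 1.80, 2.41, 1.76, 2.13 and 1.14 in nulls (chr8:73153293-73153352). The groups were separated by more than 3 log2 units, and the difference was -3.97 (SE 0.39, adjusted p = 1.35e-05). Under placebo the wild types spread from 1.13 to 3.54 and the nulls from 1.55 to 3.04, with a difference of -0.14 (adjusted p = 0.958).

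Among the other large differences, Corin, the protease that activates natriuretic peptides, had a difference of -3.11 (SE 0.40, adjusted p = 0.000237). Wild types under E2 lay between -2.08 and -1.23 and nulls between -5.26 and -4.36, with 1 of 5 null arrays above background. Mmd2, a membrane protein of the progestin and adipoQ receptor family, had levels of 3.20, 2.98, 3.07, 3.32 and 2.85 in wild types and 0.35, 1.49, -0.79, 0.38 and 0.21 in nulls. All of its arrays were above background, and it was 6.76-fold lower in nulls (-2.76, SE 0.32, adjusted p = 9.18e-05). Smtnl2, a smoothelin-like protein, differed by -2.43 (SE 0.30, adjusted p = 0.000187), with wild types from 0.18 to 1.90 and nulls from -1.91 to -1.03. None of these groups overlapped under E2, and the placebo differences of the 3 genes lay between -0.26 and 0.82 without a call.

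Lower in nulls near the detection limit were Krt4, Trex2, Rab44 and Prtn3. Krt4, an epithelial type II keratin, was above background on 5 wild-type and 0 null arrays under E2 and was at least 2.29-fold lower (fitted -2.97, SE 0.39, adjusted p = 0.000288). Trex2, an exonuclease, differed by -2.94 (SE 0.45, adjusted p = 0.0017) with 1 of 5 null arrays above background. Rab44, a large Rab GTPase, differed by -2.48 (SE 0.29, adjusted p = 9.18e-05) and Prtn3, a serine protease of neutrophil granules, by -2.44 (SE 0.38, adjusted p = 0.00228), each with 3 of 5 null arrays above background. Normexp correction left these 4 differences at -0.60, -0.88, -1.11 and -0.97, and Corin at -1.16, all still called. For animals numbered 750 or above, the calls of Krt4 (adjusted p = 0.0946) and Prtn3 (0.137) were lost. Of the 13 neutrophil markers, 6 were measured well enough to be tested and 0 were called. Their summed levels overlapped, from 185 to 208 in wild types and from 176 to 312 in nulls under E2, and Mpo, Ngp and Ltf did not pass the filter. That sum is mainly the level of Csf3r, with log2 means of 7.54 in wild types and 7.75 in nulls. The next, Elane, had 1.17 and 1.08, so the sum says little about the other markers. The part of neutrophils in the Prtn3 difference was not tested.

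A pair of probes annotated in the array files as myosin XVB transcripts, with no current symbol, were chosen after their values were seen. At chr11:115748700-115748759 the wild types under E2 had 0.55, 0.27, 0.35, 0.92 and 0.19 and the nulls had -4.71, -4.82, -5.46, -6.73 and -4.63, of which 1 was above background. The fitted difference was -5.72 (SE 0.45, adjusted p = 8.09e-07). At chr11:115753436-115753495 all arrays were above background, and the difference was -2.49 (SE 0.14) with the smallest adjusted p of the comparison, 5.6e-09. Another kept probe of this second transcript, at chr11:115732776-115732835, differed by only -0.35 under E2 (adjusted p over probes, 0.493). It was above background on 5 null and 4 wild-type arrays under E2.

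Differences near a factor of 2 were measured for Stat5a and Ehhadh. Stat5a, a transcription factor that growth hormone and cytokine receptors activate, had levels of 2.69, 2.20, 2.68, 2.73 and 2.61 in wild types and 1.25, 1.76, 1.71, 1.24 and 1.72 in nulls under E2. The groups did not overlap, the mean was 2.06-fold lower in nulls (-1.04, SE 0.15, adjusted p = 0.000822), and the placebo difference was 0.00. The adjusted p rose to 0.0628 when arrays were scaled on their median. Ehhadh, a bifunctional enzyme of peroxisomal fatty acid oxidation, differed by -0.98 (SE 0.21, adjusted p = 0.0417), with wild types from 6.43 to 7.24 and nulls from 5.54 to 6.14. Its call was lost under 18 of 35 alternative settings, where the adjusted p reached 0.412.

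Rai14, an actin-associated protein first described as induced by retinoic acid, was the only response gene higher in nulls. Wild types under E2 had 2.28, 2.15, 2.30, 2.20 and 2.23, below every array of the other 3 groups, and nulls had 2.76, 2.65, 2.85, 2.94 and 2.95. The difference was 0.60 (SE 0.09, adjusted p = 0.00125), 1.51-fold, against 0.00 under placebo. Its call was lost when arrays were scaled on their median (adjusted p = 0.169).

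The other 42 response genes, all lower in nulls, had differences from -5.72 to -0.52 (median -1.10) under E2 and from -0.53 to 0.84 under placebo. All 5 null arrays under E2 were above background for 38 of them. Some with known roles were singled out after their values were seen, and none had overlapping E2 groups. Il17ra, a subunit of the interleukin-17 receptor, had levels of 1.64, 1.27, 0.79, 0.97 and 0.71 in wild types and -1.42, -1.26, -1.33, -1.29 and -0.67 in nulls, a difference of -2.27 (SE 0.24, adjusted p = 2.16e-05). Mad2l1, a spindle checkpoint protein, differed by -1.93 (SE 0.15, adjusted p = 8.09e-07), with wild types from 0.56 to 1.19 and nulls from -1.30 to -0.73. The list of 20 cell cycle genes tested had 0 calls and a median of 0.03.

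Other members of this class act in signalling and lipid synthesis. Itpk1, an inositol phosphate kinase, differed by -1.39 (SE 0.13, adjusted p = 8.03e-06), with wild types from 0.79 to 1.34 and nulls from -0.45 to -0.21. Tgm2, a transglutaminase that crosslinks proteins, differed by -1.34 (SE 0.16, adjusted p = 9.18e-05), with wild types from 5.84 to 6.78 and nulls from 4.70 to 5.04. Gpat3, an acyltransferase of glycerolipid synthesis, had wild types from 4.63 to 5.0 and nulls from 3.53 to 3.93 under E2 (-1.10, SE 0.16, adjusted p = 0.000727), while its placebo difference was 0.44. Aqp8, a water channel of hepatocytes, had wild types from 5.69 to 6.27 and nulls from 4.91 to 5.37 (-0.81, SE 0.18, adjusted p = 0.0445), against a placebo difference of 0.66. A second kept probe of Aqp8 differed by -0.88 under E2 and was not called (adjusted p over probes, 0.106). For Gpat3 and Aqp8 the difference between the genotype differences was called too (adjusted p = 0.00224 and 0.00997).

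**Figure D2:**
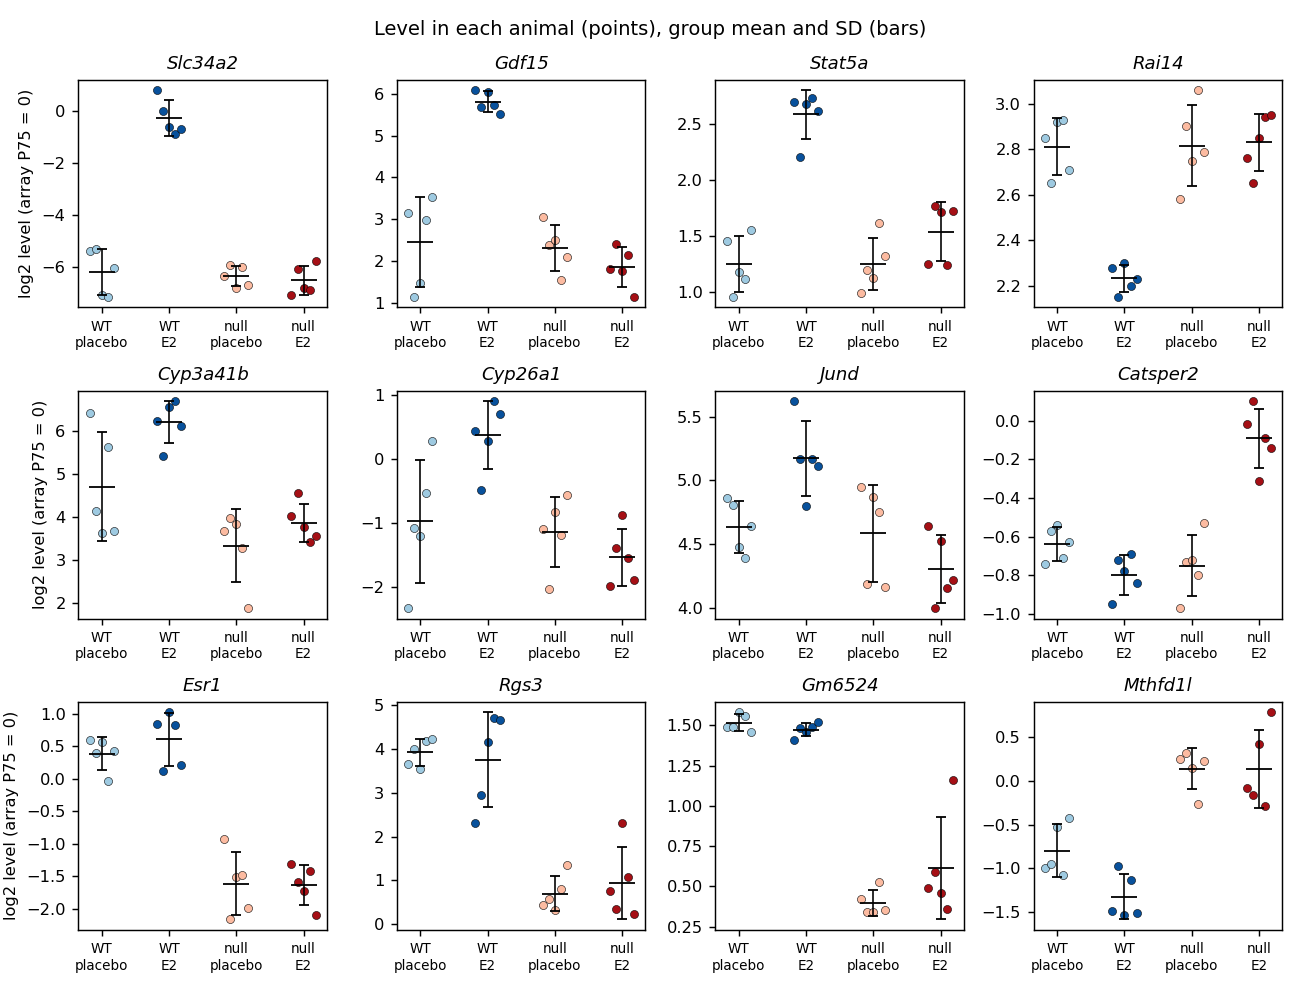
Levels of 12 genes (log2, array 75th percentile at 0) are plotted for the 5 animals of each group, with the group mean and SD as bars. Slc34a2, Gdf15 and Stat5a are high, and Rai14 is low, in wild types under E2 alone; Esr1, Rgs3, Gm6524 and Mthfd1l separate by genotype under both treatments, and Catsper2 is high in nulls under E2.

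Promoters were examined because estrogen receptors are known to bind a palindrome of 2 half-sites. RefSeq promoter windows (build GRCm38.p6, 250 bases before to 50 after a start) were matched by symbol for 68 of the 87 called genes with a symbol. The consensus palindrome, GGTCA followed by any 3 bases and TGACC, was in 0 of the 68 and in 5 of 11735 tested genes with a window (0.0426%). The half-site AGGTCA, on either strand, which lies within many longer nuclear receptor motifs, was in 10 of 68 (14.7%), against 16.1% of tested genes and 16.3% of all windows in the table. Among response genes lower in nulls it was in 4 of 33 (12.1%), which is no higher than the background share. The windows of Gdf15 (chr8:70632407-70632706, minus strand), of the 2 starts of Stat5a (chr11:100859406-100859705 and chr11:100860234-100860533, plus strand), of Lifr (chr15:7129322-7129621, plus strand) and of Rai14 (chr15:10713491-10713790, minus strand) are shown because these genes carry the main contrasts and hold the half-site. Capitals mark it, and each runs 5′ to 3′ in the direction of transcription.
Gdf15 promoter: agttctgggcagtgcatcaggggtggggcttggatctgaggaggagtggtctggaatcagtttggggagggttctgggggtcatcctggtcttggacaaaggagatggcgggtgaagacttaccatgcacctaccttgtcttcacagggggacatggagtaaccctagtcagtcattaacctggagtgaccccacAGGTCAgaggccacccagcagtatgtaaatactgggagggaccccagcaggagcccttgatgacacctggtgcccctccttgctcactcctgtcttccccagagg
Stat5a promoter, first start: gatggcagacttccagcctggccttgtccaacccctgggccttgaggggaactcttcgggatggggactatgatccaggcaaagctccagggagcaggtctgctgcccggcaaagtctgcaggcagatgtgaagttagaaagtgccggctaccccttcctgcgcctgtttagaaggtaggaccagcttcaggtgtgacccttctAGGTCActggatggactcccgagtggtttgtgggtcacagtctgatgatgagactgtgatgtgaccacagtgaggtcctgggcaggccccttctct
Stat5a promoter, later start: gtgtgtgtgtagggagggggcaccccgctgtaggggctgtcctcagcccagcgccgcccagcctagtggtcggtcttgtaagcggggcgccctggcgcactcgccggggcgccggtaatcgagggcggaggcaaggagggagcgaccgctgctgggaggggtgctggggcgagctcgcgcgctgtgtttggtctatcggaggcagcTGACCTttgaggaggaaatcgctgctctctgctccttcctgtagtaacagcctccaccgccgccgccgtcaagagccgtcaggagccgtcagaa
Lifr promoter: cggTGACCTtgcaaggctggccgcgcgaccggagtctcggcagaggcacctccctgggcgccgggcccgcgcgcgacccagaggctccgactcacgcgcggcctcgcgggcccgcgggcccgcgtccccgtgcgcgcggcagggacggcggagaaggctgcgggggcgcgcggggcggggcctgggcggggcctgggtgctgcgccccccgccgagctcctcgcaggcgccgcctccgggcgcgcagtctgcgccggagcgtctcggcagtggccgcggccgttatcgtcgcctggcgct
Rai14 promoter: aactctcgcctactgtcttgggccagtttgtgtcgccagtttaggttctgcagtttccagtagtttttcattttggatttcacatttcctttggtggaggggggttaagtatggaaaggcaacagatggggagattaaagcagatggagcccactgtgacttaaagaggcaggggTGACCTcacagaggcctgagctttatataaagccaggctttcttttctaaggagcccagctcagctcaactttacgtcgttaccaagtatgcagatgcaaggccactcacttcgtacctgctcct
A match to these letters is a description of the window and not a binding site.

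Genes called for neither contrast numbered 45, of which 30 were lower in nulls and 15 were higher. For all 30 lower genes the wild types under E2 lay above the wild types under placebo on average, and in 26 that effect had an unadjusted p under 0.05 (8.3% of all genes tested). These effects share the wild-type E2 arrays that chose the genes. The share of the placebo difference was below 0.25 in 22 of the 30, from 0.25 to 0.75 in 8 and above 0.75 in 0. With unadjusted p-values in the rule, 79 of the 104 genes were response genes, 11 genotype genes, 6 both and 8 neither.

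Cyp3a41b, a cytochrome P450 with higher expression in female livers, had levels of 6.23, 5.43, 6.55, 6.69 and 6.11 in wild types and 4.02, 4.55, 3.78, 3.41 and 3.55 in nulls under E2. The groups did not overlap, and the difference was -2.34 (SE 0.49, adjusted p = 0.0358). Under placebo the wild types spread from 3.64 to 6.43 and the difference was -1.37 (adjusted p = 0.33), a share of 0.585. The gene has a near-identical copy, Cyp3a41a, so the probe may measure both. Its call was lost in 11 of 35 settings.

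Cyp26a1, the enzyme that clears retinoic acid, differed by -1.91 (SE 0.39, adjusted p = 0.0292). Wild types under E2 ranged from -0.48 to 0.91 and nulls from -1.99 to -0.87, while wild types under placebo ranged from -2.34 to 0.29. Isyna1, which makes inositol phosphate from glucose 6-phosphate, differed by -1.54 (SE 0.21, adjusted p = 0.000525), with wild types at 3.13, 3.07, 2.45, 3.45 and 2.90 and nulls at 1.36, 1.67, 1.24, 1.35 and 1.67. Its E2 effect in wild types was 0.99 at an adjusted p of 0.0524, just outside the threshold that would have made it a response gene. Jund, a subunit of the AP-1 transcription factor, differed by -0.87 (SE 0.18, adjusted p = 0.0325), with wild types from 4.80 to 5.62 and nulls from 4.00 to 4.64. The calls of Cyp26a1 and Jund were lost in 12 and 13 of 35 settings, and that of Isyna1 in 1, for animals numbered 750 or above (adjusted p = 0.0934).

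Ngfr, a neurotrophin receptor also found on activated stellate cells, differed by -1.24 (SE 0.21, adjusted p = 0.00591), with wild types from 0.40 to 0.97 and nulls from -1.22 to -0.31. It was the only one of 18 stellate cell markers called, and 14 of the 18 had differences below 0 (median -0.20, against -0.001 over all genes). The summed level of these markers was 148 to 244 in wild types and 135 to 224 in nulls under E2. That sum is mainly the levels of Dcn (log2 means of 6.40 in wild types and 6.09 in nulls) and Ecm1 (6.30 and 6.10). It thus says little about the other stellate markers. Endothelial markers had a median of -0.22, with 16 of 18 below 0 and 0 called, and summed levels of 72.5 to 108 and 65 to 121. Under placebo the endothelial median was -0.14 with 14 of 18 below 0, and the stellate median was 0.002 with 9 of 18 below 0. The part of these cells in the Ngfr difference was not tested. For animals numbered 750 or above its call was lost (adjusted p = 0.214).

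The other 24 lower genes of this class differed by -2.48 to -0.37 (median -0.67), and the 7 other higher genes by 0.47 to 1.64. Among them, singled out after their values were seen, Ulk1, a kinase that starts autophagy, had wild types from 5.98 to 6.65 and nulls from 5.40 to 5.76 under E2 (-0.73, SE 0.13, adjusted p = 0.00625). Rela, a subunit of NF-kappaB, had wild types from 5.45 to 5.99 and nulls from 5.17 to 5.40 (-0.53, SE 0.11, adjusted p = 0.0402). The groups of both genes were apart under E2, with placebo differences of 0.02 and -0.08.

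Lifr, the receptor of leukemia inhibitory factor and a gene with higher expression in female livers, was measured by 3 probes that differed in class. At the brightest, chr15:7135072-7135131, the wild types under E2 had 6.03, 5.83, 6.68, 7.01 and 6.70 and the nulls 4.06, 4.32, 5.38, 5.25 and 3.88, a difference of -1.87 (SE 0.30, adjusted p = 0.00338). E2 against placebo in wild types was 1.22 there (adjusted p = 0.147), so the gene fell in neither class. The call was lost with the E2 arrays alone and for animals numbered 750 or above (adjusted p of up to 0.0591). At chr15:7141150-7141209 the wild types had 1.97, 1.1, 2.08, 2.17 and 2.18 and the nulls -1.15, -1.28, -0.76, -0.42 and -1.19, a difference of -2.86 (adjusted p over probes, 1.23e-07). The probe at chr15:7147319-7147378 gave -2.89 (adjusted p over probes, 3.93e-07). At these other probes the wild-type E2 effects were 2.73 and 2.87 and the placebo differences -0.04 and 0.06, which makes both response probes. Which transcripts each probe measures was not tested.

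**Figure D3:**
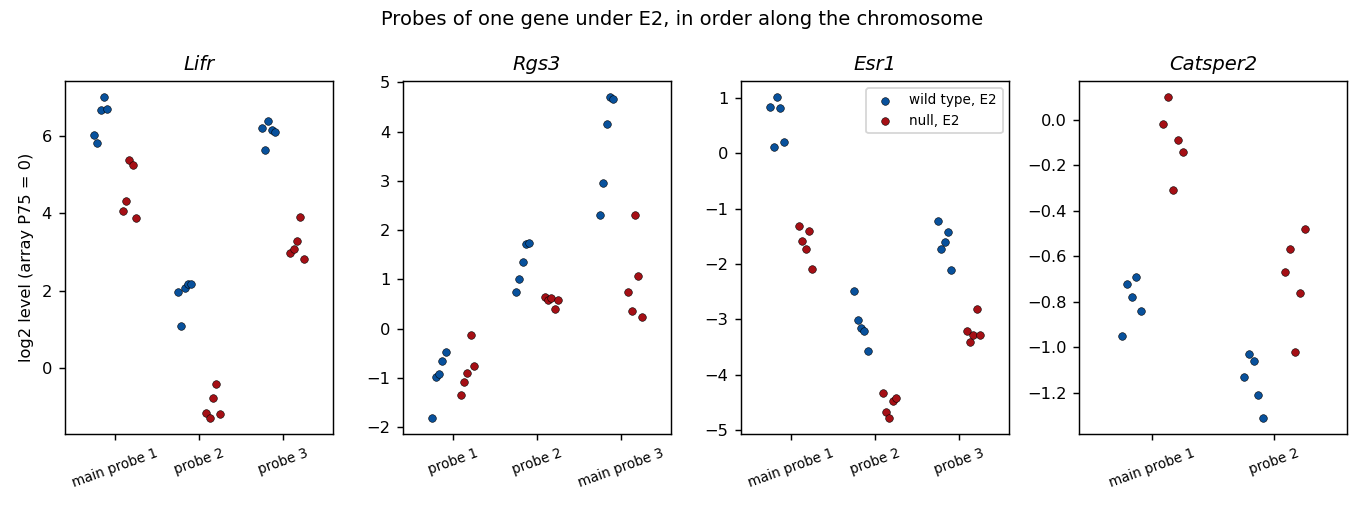
Levels under E2 are plotted for each kept probe of Lifr, Rgs3, Esr1 and Catsper2, in order along the chromosome, with 5 wild-type (blue) and 5 null (red) animals per probe. The E2 groups are apart at all 3 probes of Lifr and of Esr1, whereas the first probe of Rgs3 shows overlapping groups (difference 0.13).

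At the level of single probes, 139 of 30009 were called, from 114 genes. Of the 104 called genes, 23 had several kept probes, and in 21 of those all probes differed in the same direction. There were 13 genes called only at a probe other than the brightest. Of these, Armt1, a carboxyl methyltransferase gene near Esr1, was singled out after its values were seen and differed by 1.36 under E2 and 1.58 under placebo at chr10:5906780-5906839, while its brightest probe gave 0.36 (adjusted p = 0.382).

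Higher in nulls were 17 genes, of which 1 was a response gene, 1 a genotype gene and 15 neither. The count was 7 without wild-type replicate 2 or wild-type replicate 5 under E2, 9 without null replicate 4 and 10 or 11 without each of wild-type replicate 1 and null replicates 1, 2 and 5. Catsper2, part of a calcium channel of sperm, had levels of -0.95, -0.72, -0.78, -0.69 and -0.84 in wild types and -0.02, 0.10, -0.31, -0.09 and -0.14 in nulls under E2. The difference was 0.70 (SE 0.09, adjusted p = 0.000237), against -0.11 under placebo. It was the 1 gene called for E2 against placebo in nulls (0.66, adjusted p = 0.0147; 0.00466% of genes tested), while wild types gave -0.16 (adjusted p = 0.668). A second probe of the gene differed by 0.44 (adjusted p over probes, 0.102), with null levels from -1.02 to -0.48. The call of Catsper2 under E2 was lost with median scaling and for animals numbered 750 or above, with an adjusted p of up to 0.0655.

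Others that were higher had small or loosely supported differences. Cldn3, a tight junction protein, differed by 0.70 (SE 0.15, adjusted p = 0.0443), with wild types from 4.25 to 4.93 and nulls from 5.19 to 5.48. Neu2, a cytosolic sialidase, differed by 0.74 (SE 0.16, adjusted p = 0.0389), and Gal3st1, which adds sulfate to galactosylceramide, by 1.34 (SE 0.29, adjusted p = 0.0454). The nearest animals of the groups lay at 1.35 and 1.45 for Neu2 and at -1.23 and -1.08 for Gal3st1. Dnajb2, a J-domain cochaperone, differed by 0.31 (SE 0.06, adjusted p = 0.0305), with wild types from 2.80 to 3.0 and nulls from 3.11 to 3.26. The calls of these 4 genes were lost in 14 to 22 of 35 alternative settings.

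Dennd2d and Rdh5 were the 2 genes of the neither class with a placebo share above 0.75. Rdh5, a retinol dehydrogenase, had levels of 4.14, 4.29, 4.46, 4.18 and 3.93 in wild types and 4.68, 4.78, 4.56, 4.74 and 5.05 in nulls under E2, and the difference was 0.56 (SE 0.12, adjusted p = 0.0433). Under placebo it was 0.48, again with no overlap, at an adjusted p of 0.166. Dennd2d, an exchange factor for Rab GTPases, differed by 0.58 (SE 0.13, adjusted p = 0.0443) under E2 and by 0.46 (adjusted p = 0.217) under placebo. Their calls under E2 were lost in 21 and 19 of 35 settings.

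The 5 genotype genes were Esr1, Rgs3, Zc3h12d, Gm6524 and a lincRNA region on chromosome 10, with placebo shares from 0.888 to 1.302. Rgs3, which accelerates GTP hydrolysis by G protein alpha subunits, was 7.05-fold lower in nulls at chr4:62363993-62364052 (-2.82, SE 0.43, adjusted p = 0.00162). Wild types under E2 had 2.30, 2.95, 4.16, 4.70 and 4.67 and nulls had 0.75, 0.35, 2.30, 1.07 and 0.23, so the highest null and the lowest wild type met at the same rounded level. Under placebo the difference was -3.22 (adjusted p = 0.00229). Its probes at chr4:62363208-62363267 and chr4:62320777-62320836 gave -0.75 (adjusted p over probes, 0.0261) and 0.13 (0.93) under E2. With the probes of a gene averaged, Rgs3 was no longer called (-1.15, adjusted p = 0.0756).

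Gm6524, a predicted gene, had levels of 1.41, 1.48, 1.46, 1.49 and 1.52 in wild types and 0.49, 0.59, 0.46, 0.36 and 1.16 in nulls under E2. The fifth null stood apart from the other 4 and still lay below every wild type. The difference was -0.86 (SE 0.11, adjusted p = 0.00022), and under placebo it was -1.12 (adjusted p = 8.61e-05). The call under E2 was lost with median scaling and for animals numbered 750 or above, with an adjusted p of up to 0.201.

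Near Esr1, 71 other genes with probes within 10 Mb on chromosome 10 were tested and 3 were called under E2 (4.23%), against 100 of 21382 in the rest of the genome (0.468%). Mthfd1l, a mitochondrial enzyme that makes formate, had levels of -1.48, -0.97, -1.53, -1.13 and -1.51 in wild types and -0.08, -0.16, 0.42, -0.29 and 0.78 in nulls under E2 (chr10:6190563-6190622). The groups did not overlap, and the nulls were 2.75-fold higher (1.46, SE 0.20, adjusted p = 0.00037). Under placebo the groups did not overlap either, with a difference of 0.93 at an adjusted p of 0.0862, so it missed the genotype class. The second kept probe of Mthfd1l, chr10:6198416-6198475, differed by 0.83 under E2 (adjusted p over probes, 0.362). There the groups overlapped, with wild types from -3.70 to -1.95 and nulls from -2.85 to -1.70. The other 2 called genes near Esr1 were chosen after their values were seen. Zc3h12d, a CCCH zinc finger protein, was lower in nulls (-2.23, SE 0.38, adjusted p = 0.00503; chr10:7589850-7589909), with nulls at -3.46, -3.95, -4.62, -3.37 and -1.65 and wild types from -1.67 to -0.82. The fifth null overlapped the wild types, and under placebo the difference was -2.79 (adjusted p = 0.00229).

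The third was a lincRNA region, chr10:6480075-6603900 (mm9, minus strand), which was higher in nulls. At its main probe, chr10:6490456-6490515, wild types under E2 had -2.71, -3.29, -4.38 and -3.35, and the spot of wild-type replicate 4 was left out as an outlier by the image software and dropped from the fit. Nulls had -1.30, -1.66, -2.11, -2.07 and -2.20. The difference was 1.56 (SE 0.25, adjusted p = 0.00381), and 1.39 under placebo (adjusted p = 0.0333). At the adjacent probe, chr10:6490516-6490575, 5 of 5 null arrays and 0 of 5 wild-type arrays under E2 were above background. The sequences of both 60-base probes identify this transcript, which has no gene symbol:
lincRNA main probe: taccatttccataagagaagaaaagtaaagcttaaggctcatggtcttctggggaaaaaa
lincRNA adjacent probe: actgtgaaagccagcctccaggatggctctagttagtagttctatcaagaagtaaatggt
All 4 kept probes of the region had differences above 0 (1.56 to 2.55), and 3 of them were called.

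**Figure D4:**
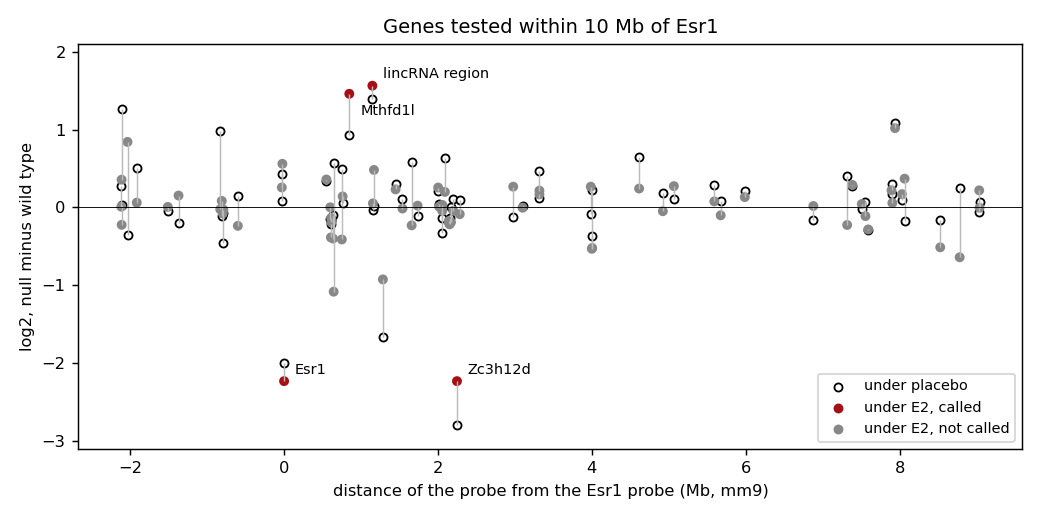
The log2 difference (null minus wild type) is plotted against the distance from the Esr1 probe in Mb for Esr1 and the 71 other genes tested within 10 Mb, with open points for placebo and filled points for E2, red where called. Besides Esr1 the called points are Mthfd1l (1.46), the lincRNA region (1.56) and Zc3h12d (-2.23).

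Genotype differences under placebo were called for 16 genes, of which 5 were called under E2, 31.2% of the placebo calls and 4.81% of the E2 calls. The sign under E2 was the same for 15 of the 16. The difference between the genotype differences was called for 0 of these 16 by limma, and 9 had an unadjusted p under 0.05, against 7.44% of all genes tested. That contrast contains the placebo difference that chose the 16, so nothing is read from the 9. The wild-type E2 response was called for 72 genes, of which 18 were not called for genotype under E2 (adjusted p from 0.0514 to 0.776).

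Called genes often lay beside each other. Of the 104, 35 had a probe within 250 kb of another called gene (33.7%), against 820 of 21185 genes not called (3.87%). Some of these neighbours are transcripts of the same locus, and with genes that have a symbol alone the shares were 25 of 87 (28.7%) and 588 of 14850 (3.96%). In 33 of the 35 the nearest called gene differed in the same direction, and since 83.7% of all called genes were lower, most pairs share a direction whatever their position. The neighbours named next were singled out after their values were seen. On chromosome 8, Isyna1, Gdf15 and Pgpep1 followed each other at 73121065, 73153293 and 73174006 (mm9), with differences of -1.54, -3.97 and -0.76. Krt4 and Krt79, neighbouring keratins on chromosome 15, differed by -2.97 and -2.15. Rab44 and Cpne5, a copine, lay 9043 bases apart on chromosome 17 and differed by -2.48 and -0.91. The exception in direction was Gal3st1, higher in nulls (1.34), beside Sec14l4, lower in nulls (-0.50).

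Over 33 gene lists for liver functions and cell types, 613 genes were tested and 7 were called (1.14%), against 0.485% of all genes tested. The lists include Esr1 itself. With a background of 0.485%, 0 or 1 calls in a list of this size is near what the share over all genes gives, and 27 lists had 0 calls. The female-biased list had 2 of 36 called, Cyp3a41b and Lifr, both lower in nulls, with a list median of 0.08. Its differences ran from -4.08, for a gene not called, to 1.38, and 20 of 36 were above 0. Growth hormone signalling had 1 of 22 (Stat5a), fatty acid oxidation 1 of 34 (Ehhadh) and immediate early genes 1 of 22 (Jund). Lists with 0 calls included 27 estrogen targets known from other tissues (median -0.04), 19 receptor coregulators (-0.02), 27 male-biased genes (0.00), 26 bile acid genes (0.03) and 34 xenobiotic metabolism genes (0.14). Cholesterol synthesis had a median of 0.20 with 23 of 28 above 0 and 0 called, and under placebo 0.44 with 28 of 28 above 0. The interferon list had a median of 0.24 with 29 of 33 above 0 and 0 called, and under placebo 0.27 with 28 of 33 above 0. In the other direction, immediate early genes had a median of -0.30 with 15 of 22 below 0, and 0.15 under placebo. Glucocorticoid targets had a median of -0.21 with 15 of 22 below 0 and 0 called, and 0.35 under placebo. Within slides 1, 2 and 4, which held 1, 2 and 1 null and 2, 2 and 1 wild-type E2 arrays, some list medians turned sign. They were 0.08, -0.40 and 0.159 for immediate early genes and 0.142, -0.252 and -0.126 for glucocorticoid targets. For cholesterol synthesis they were -0.342, 0.365 and 0.487, and for the interferon list 0.203, 0.044 and 0.204. The female-biased list had 0.437, -0.244 and 0.361. Of 111 tested markers of 10 other cell types, 1 was called (Ngfr), and Adipoq, Lep and Plin1, which define adipocytes, did not pass the filter.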

How the data were processed

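Total RNA of 20 livers was labelled with Cy3 and hybridised to Agilent 1-colour arrays, per the labels' protocols. Each deposited scanner file gives a background-subtracted, detrended intensity per spot from Agilent Feature Extraction 10.10.1.1, with probes placed on mm9, per the file headers. A value table that the authors deposited holds log2 values of 32526 probes; its columns have medians near 7.85 and follow each array's log2 median signal; the normalization is not stated, and the table served as an alternative. The submitters' processing notes name limma without a version.

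The log2 intensity was centred on the 75th percentile of each array over 59305 non-control spots; outlier spots were left out, spots of 1 probe averaged, and probes kept if well above background on 4 of 5 arrays of either E2 group (30009 of 55681 probes). The brightest kept probe stood for a gene, giving 21454 genes. Names came from RefSeq by accession (27325 probes), symbol (3523) or synonym (551), and 24282 probes kept the file's name.

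Group means of the 4 groups were fitted over 20 arrays (residual df 16) with limma 3.58.1, run under R 4.3.3. Tests were 2-sided, p-values were adjusted by Benjamini and Hochberg over the 21454 genes, and the threshold was 0.05. The fit was checked on simulated data. Named genes were called genes with a symbol and no overlap under E2: the 10 largest decreases and 10 largest increases, up to 5 per class and near Esr1, up to 3 per list, and Esr1, Esr2 and Gper1. The members and lists were chosen with earlier results of these data known. For arrays, the number of animals limits the precision.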

Additional observations from a re-analysis of the deposited data

Results flagged for a closer look

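For 8 named genes the genotype difference under E2 differed from that under placebo by a test of the difference itself (limma adjusted p under 0.05 over all genes). The value, E2 minus placebo, was -6.07 for Slc34a2, -3.83 for Gdf15, -3.93 for Corin, -2.87 for Krt4, -2.95 for Mmd2, -2.64 for Rab44, -2.17 for Smtnl2 and 0.81 for Catsper2. The same E2 arrays chose these genes. The sizes for Slc34a2 and Krt4 rest on groups with 0 of 5 arrays above background. That for Corin rests on wild-type placebo, null placebo and null E2 groups with 0, 2 and 1 of 5 arrays above background, and that for Rab44 on groups with 3 or 4 of 5, so these are fitted values and not measured sizes.

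A single animal stood apart from the other 4 of its group, by Dixon's limit for 5 samples (0.71), in 8 of the 124 groups tested over 31 named genes. Chance marks about 1 in 20 groups. The levels were -2.34 for Krt4 in wild-type replicate 1 under E2 and -4.97 in wild-type replicate 1 under placebo, -1.1 for Prtn3 in wild-type replicate 4 under E2 and 2.20 for Stat5a in wild-type replicate 2 under E2. In nulls they were -1.22 for Ngfr in replicate 1 under E2, 1.16 for Gm6524 in replicate 5 under E2, 0.05 for Gal3st1 in replicate 2 under placebo and -0.27 for Mthfd1l in replicate 4 under placebo.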

How the results depend on the processing

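Of the 104 calls (17 higher, 87 lower; 54 response, 5 genotype, 0 both, 45 neither; 36 for the difference between genotype differences), scaling on the array median, which shifts the median gene by 0.115, left 41 (4 higher, 37 lower, 25 response, 12 neither, 18). Animals numbered 750 or above gave 38 (4 and 34; 29 response, 1 genotype, 8 neither, 10). Numbers below 750 as a block gave 114 (25 and 89, 50 response, 4 genotype, 60 neither, 35). With no filter there were 69 (6 higher, 24 neither); with the E2 arrays alone 9 were higher, and with the slide as a block 8 were higher and 29 neither. Chosen after seeing the data, leaving out the E2 arrays that stand apart (wild-type replicate 1 and null replicate 2) gave 63 (6 and 57, 19 neither), and requiring signal above background in each group gave 3 genotype genes. Unadjusted p-values in the class rule gave 11 genotype, 6 both and 8 neither. Placebo share limits of 0.25 and 0.75 gave 17 neither, and limits of 0.33 and 0.67 gave 87 response and 10 neither.

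Leaving out each array gave 67 to 121 calls, 7 to 23 higher, 60 to 98 lower, 40 to 62 response, 4 to 6 genotype, 0 to 0 both, 20 to 60 neither and 31 to 40 for the difference. The neither class was 29, 24 and 22 without wild-type replicates 1, 2 and 5 under E2 and 26, 26, 20 and 24 without null replicates 1, 2, 4 and 5. With the replicate block there were 94 calls; same-numbered E2 arrays correlated at 0.066 to 0.221 and 2 of 5 pairs exceeded 0.1, so numbers were not taken to pair animals. The causes were not tested.

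The sign of Gper1 turned with median scaling (0.04), quantile normalization (0.126), the deposited table (0.042) and without null replicate 3 under E2 (0.032); leaving out each array gave -0.188 to 0.032. That of Esr2 turned for animals numbered 750 or above (-0.142), without null replicate 2 (-0.004), without null replicate 1 (-0.07) and without both arrays that stand apart (-0.017); leaving out each array gave -0.07 to 0.107. On slides 1, 2 and 4, which carried arrays of either genotype under E2, Gdf15 differed by -3.91, -4.62 and -3.1 and Esr1 by -1.79, -2.84 and -1.80. Signal over background limits the size for Slc34a2 and Krt4 (0 of 5 null E2 arrays above background) and for Corin, Trex2 and the myosin XVB probe at -5.72 (1 of 5).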
